A study of Mus musculus with 12 samples.

Results

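The genes described here are 10 transcripts by which neutrophils are commonly recognised: S100a8, S100a9, Retnlg, Cxcr2, Mmp8, Mmp9, Camp, Ngp, Ltf and Stfa2l1. They were chosen by symbol and looked up by Ensembl ID, and 10 of 10 were found in each of 12 count tables, among 49585 gene IDs in the liver tables and 55401 in the macrophage tables. The samples were C57BL/6 mouse liver, either untreated (wild type in the sample titles) or 2 h after LPS, the lipopolysaccharide of bacterial outer membranes, and C57BL/6 peritoneal macrophages in culture. All macrophages had received a lentivirus encoding a short hairpin RNA for 72 h and LPS for the last 2 h. The hairpin was a negative control (shNC) or was directed at the non-coding RNA Gm26917 (shGm26917), 1 hairpin construct being named for each. Each of the 4 groups held 3 libraries. No group of macrophages without LPS or without lentivirus is analysed here, so the macrophage libraries say nothing about the response to LPS itself. Age, sex, LPS dose and route are not given in the sources at hand, and nothing in the labels says that replicates came from separate animals or cultures, so p-values measure only the spread between these libraries. The level of Gm26917 in the macrophages was not analysed here.

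The liver libraries summed to between 17322770 and 20913964 counts, and the macrophage libraries to between 15605311 and 18062853. Replicates differed beyond sampling noise in every pair, and 2 libraries stood apart from their group by a chi-square of counts per degree of freedom. For untreated liver replicate 3 it was 207 and 183 against replicates 1 and 2, which gave 90.2 between them. For shNC replicate 2 it was 211 and 251 against replicates 1 and 3, which gave 30.7 between them. Fold changes that moved by over 1.5 times without 1 of these libraries, and calls that changed, are given both ways where they are described.

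Neutrophils are short-lived phagocytes that are made in bone marrow, circulate in blood and enter inflamed tissue within hours. They carry their antimicrobial proteins in granules that are filled in a fixed order during maturation: azurophil granules first, then specific granules (lactoferrin, cathelicidin, Ngp), then gelatinase granules (Mmp9). The transcripts of azurophil proteins are largely lost before the cells leave the marrow, whereas the calprotectin subunits S100a8 and S100a9, the receptor Cxcr2 and the resistin-like protein Retnlg mark mature cells. In liver, circulating neutrophils collect in the sinusoids after LPS, held by adhesion molecules of the vessel wall and drawn by chemokines that bind Cxcr2. The comparison of LPS with untreated liver asks how far these transcripts rose in the tissue, and the macrophage libraries show which of them were also counted in macrophages.

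Of the 10 genes, 9 rose in liver 2 h after LPS, by 5.19-fold (Ltf) to 112-fold (Ngp), and Mmp9 did not pass the test. Against this, 45.3% of 13869 tested liver genes were called changed and 23.3% were called higher (edgeR, quasi-likelihood F test, Benjamini-Hochberg adjusted p under 0.05). The median log2 fold change was 5.99 over the 10 genes and -0.06 over all tested genes. The groups did not overlap for 10 of 10, LPS being higher, as for 29.4% of tested genes. A rise of at least 8-fold was called for 8 of the 10 and for 4.37% of tested genes. The test kept genes above about 0.515 CPM (read counts scaled to a common library size by TMM factors unless stated) in at least 3 libraries. That level, on library totals, was reached in all 3 untreated livers by S100a9, Mmp9 and Ltf. The other 7 needed LPS libraries to pass, which favours genes that are higher with LPS. These counts therefore describe the list and are no test of it. Scaling by library totals in place of TMM factors moved the median of all liver genes to -0.49 and the split of calls from 3227 higher and 3060 lower to 1943 higher and 5305 lower. Under that scaling 9 of the 10 were again called higher. In bulk tissue, more neutrophils and more of these transcripts per cell cannot be told apart.

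**Figure D1:**
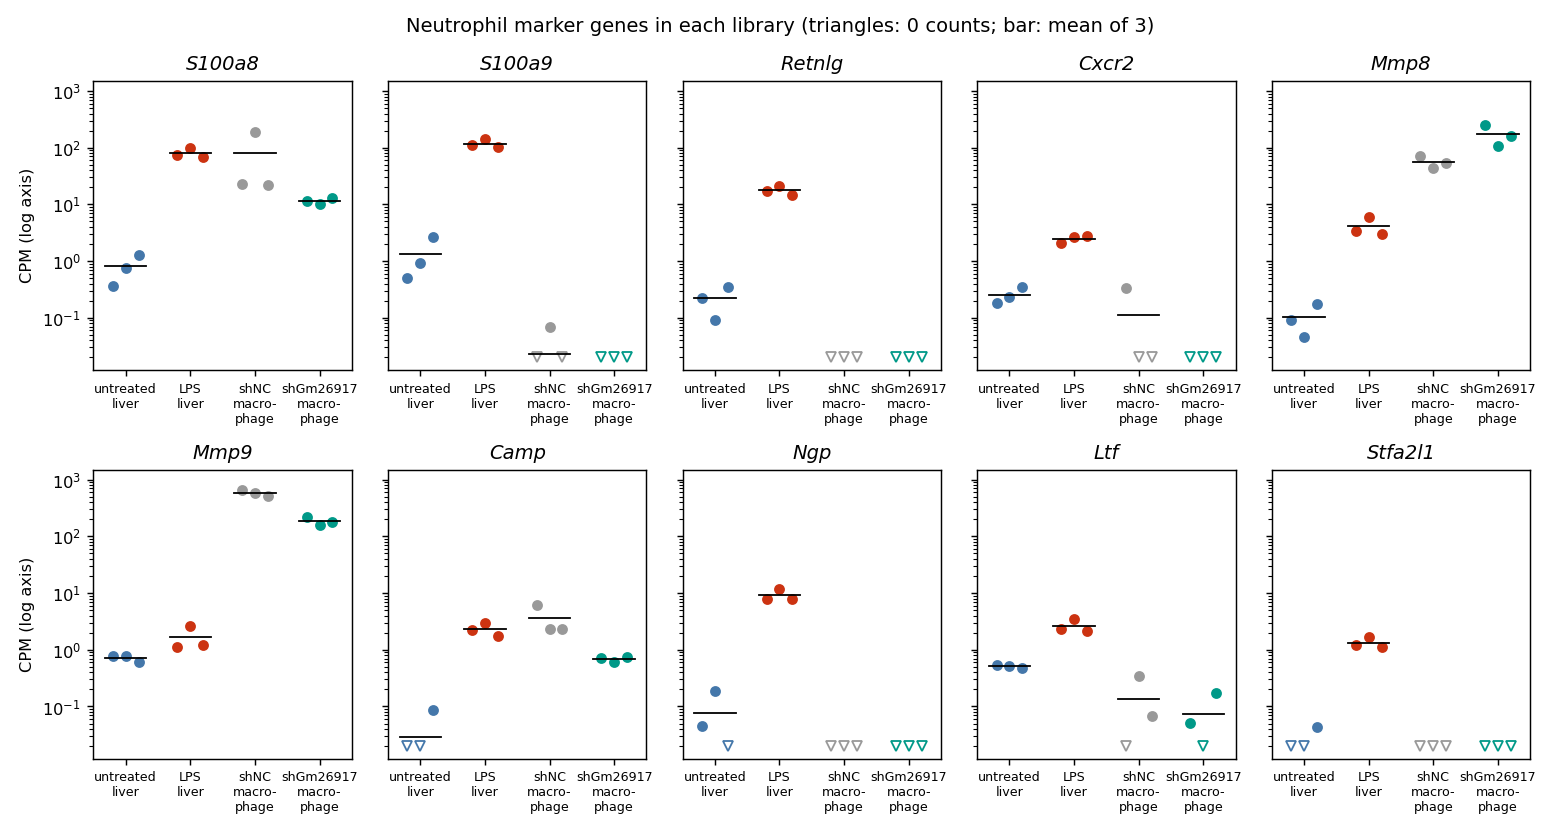
CPM (log axis) of each of the 10 genes in each of 12 libraries, grouped as untreated liver, LPS liver, shNC macrophages and shGm26917 macrophages. Points are libraries, bars are means of 3, and triangles mark libraries with 0 counts. The LPS livers stand above the untreated livers in all 10 panels, and Retnlg, Ngp and Stfa2l1 have 0 counts in all 6 macrophage libraries.

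The bases ahead of the transcription start are shown for 4 of the genes: the calprotectin pair, which rose together in liver, Ngp, which had the highest fold change with all 6 livers, and Mmp8, which was also counted in macrophages. They are RefSeq promoters on GRCm38.p6, read 5' to 3' on the strand of the gene and ending before the earlier of the starts that RefSeq and GENCODE give. Capitals mark matches, on either strand, to TTGCNNAA (a motif of C/EBP factors, which drive granule gene expression) or to GAGGAAGT (a motif of PU.1, a factor of the myeloid lineage; on the opposite strand it reads ACTTCCTC).
S100a8 (chr3:90668821-90668977, plus strand): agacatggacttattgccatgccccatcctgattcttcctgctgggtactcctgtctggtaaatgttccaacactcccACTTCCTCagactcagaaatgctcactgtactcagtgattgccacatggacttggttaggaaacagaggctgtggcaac
S100a9 (chr3:90695722-90695971, minus strand): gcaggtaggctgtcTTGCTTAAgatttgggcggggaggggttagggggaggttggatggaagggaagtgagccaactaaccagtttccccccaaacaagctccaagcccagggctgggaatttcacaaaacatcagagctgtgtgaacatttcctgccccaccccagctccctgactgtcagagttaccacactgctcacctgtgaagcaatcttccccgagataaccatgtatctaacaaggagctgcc
Ngp (chr9:110419558-110419746, plus strand): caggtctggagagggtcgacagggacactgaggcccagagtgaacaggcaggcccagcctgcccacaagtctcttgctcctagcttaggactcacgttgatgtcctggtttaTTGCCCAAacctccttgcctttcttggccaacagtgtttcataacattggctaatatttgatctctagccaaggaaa
Mmp8 (chr9:7558179-7558428, plus strand): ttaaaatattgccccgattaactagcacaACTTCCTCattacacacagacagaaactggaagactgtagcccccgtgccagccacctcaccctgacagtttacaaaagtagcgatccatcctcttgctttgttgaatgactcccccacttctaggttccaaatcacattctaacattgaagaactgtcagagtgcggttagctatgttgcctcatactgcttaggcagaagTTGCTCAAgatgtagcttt
The set of RefSeq promoters used here held 9 of the 10 genes, Mmp9 being the exception. Motifs were searched in the 250 bases ahead of the RefSeq start, which for 5 of the 9 lay inside the GENCODE gene, by 93 bases in S100a8 and 61 in Ngp. TTGCNNAA occurred in 5 of 9 (S100a9, Mmp8, Ngp, Ltf and Retnlg), against 9.56% of 32851 promoters. Counted from the end of the printed stretch, the match began at base 19 in Mmp8, 77 in Ngp and 236 in S100a9. A further match in Ngp, on the opposite strand, lay inside the GENCODE gene and is not printed. GAGGAAGT occurred in 2 of 9 (S100a8 and Mmp8), against 2.44% of all promoters. The looser TTNCNNAA, which contains every TTGCNNAA match, occurred in 7 of 9 against 36.8%. The RUNX letters TGTGGT were found in 2 of 9 (14% of all promoters), the TATA box letters TATAAA in 1 of 9 (12.4%; the match, in S100a8, lay inside the GENCODE gene), the AP-1 letters TGANTCA in 0 of 9 (6.75%) and the kappaB consensus in 0 of 9 (3.9%). A match describes the letters of this window and no binding was measured.

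S100a8 and S100a9 encode the 2 subunits of calprotectin, a calcium- and zinc-binding protein that makes up much of the neutrophil cytosol. The genes lie 22596 bases apart on chromosome 3, S100a8 (ENSMUSG00000056054) at 90668978 to 90670035 on the plus strand and S100a9 (ENSMUSG00000056071) at 90692632 to 90695721 on the minus strand (GENCODE M21, GRCm38), each with 3 exon blocks. S100a8 stood at 0.364, 0.742 and 1.30 CPM in untreated replicates 1, 2 and 3 and at 75.5, 99.4 and 67.9 CPM in the LPS livers. Every LPS liver was far above every untreated one, and the log2 fold change was 6.64 (SE 0.41, edgeR adjusted p = 9.08e-06). S100a9 stood at 0.501, 0.927 and 2.61 CPM in untreated liver and at 112, 141 and 101 CPM after LPS. Its log2 fold change was 6.44 (SE 0.54, edgeR adjusted p = 3.97e-05), and 7.36 without untreated replicate 3, the highest of the untreated livers for both subunits.

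The S100a9 to S100a8 count ratio was 1.49, 1.42 and 1.49 in the 3 LPS livers and 1.38, 1.25 and 2.00 in the untreated livers, where 8 to 30 counts of S100a8 were the base. The share of S100a9 in the sum of both was 59.8% (95% exact Clopper-Pearson interval 58.0% to 61.6%), 58.7% (57.2% to 60.2%) and 59.8% (57.9% to 61.7%) in the LPS livers. It was 57.9% (33.5% to 79.7%), 55.6% (38.1% to 72.1%) and 66.7% (55.9% to 76.3%) in the untreated livers. The livers thus held both subunits in similar proportion, with wide intervals before LPS. These intervals cover counting error only.

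**Figure D2:**
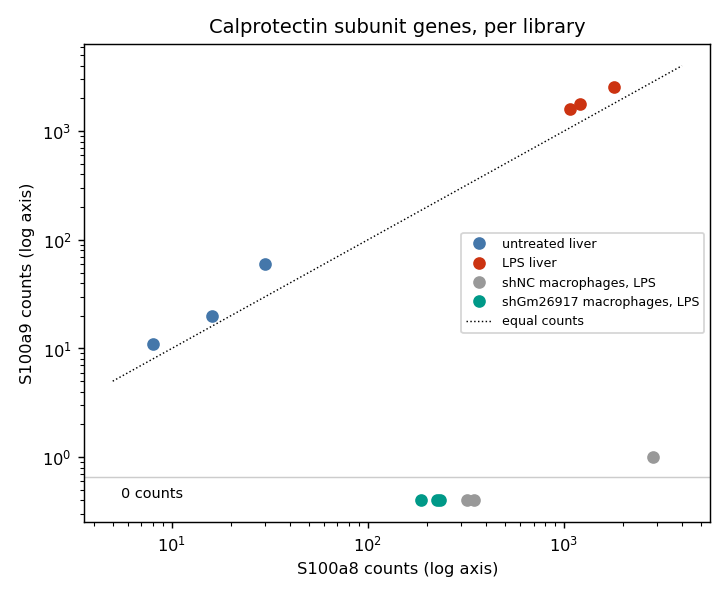
S100a9 counts against S100a8 counts (both log axes) in each of 12 libraries. The dotted line marks equal counts, and the strip at the bottom holds libraries with 0 counts of S100a9. The 6 livers lie just above the line, while the 6 macrophage libraries have 187 to 2856 counts of S100a8 and 0 or 1 of S100a9.

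Retnlg and Cxcr2 mark mature neutrophils. Retnlg (ENSMUSG00000022651, chromosome 16, 48872621 to 48874496, plus strand) encodes a secreted resistin-like protein. Its level was 0.228, 0.0927 and 0.347 CPM in untreated liver and 17.2, 21.5 and 14.6 CPM after LPS. The groups were widely separated, with a log2 fold change of 6.27 (SE 0.38, edgeR adjusted p = 8.55e-06). Cxcr2 (ENSMUSG00000026180, chromosome 1, 74153989 to 74161246, plus strand) encodes the receptor for the chemokines Cxcl1, Cxcl2 and Cxcl5. It stood at 0.182, 0.232 and 0.347 CPM before and at 2.07, 2.66 and 2.72 CPM after LPS, so the rise was 9.54-fold (log2 3.25, SE 0.40, edgeR adjusted p = 0.000351). Of the 50-base windows of Cxcr2 transcripts, 4.01% also occurred in other genes, so a small part of its reads could be shared.

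Camp, Ngp and Ltf encode proteins of the specific granules and lie within 1.20 megabases of chromosome 9. Camp (ENSMUSG00000038357, 109847379 to 109849617, minus strand) encodes the cathelicidin antimicrobial peptide. It had 0, 0 and 2 counts in the untreated livers and stood at 2.26, 2.94 and 1.77 CPM after LPS. The ratio of summed counts per effective library was 78.2 (95% interval 21.2 to 654, counting error only), and the difference passed the test (edgeR adjusted p = 0.000335; 0.000312 without untreated replicate 3, which held both untreated counts). Ngp (ENSMUSG00000032484, 110419747 to 110423012, plus strand) encodes neutrophilic granule protein. It stood at 0.0455, 0.185 and 0 CPM before and at 7.90, 11.8 and 7.72 CPM after LPS, a log2 fold change of 6.80 (SE 0.59, edgeR adjusted p = 5.18e-05) of 8.29 without untreated replicate 2 and of 6.23 without untreated replicate 3, where it stood below S100a8 (7.18) and S100a9 (7.36). Both genes were close to absent before LPS and clearly counted in every LPS liver.

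Ltf (ENSMUSG00000032496, 111019271 to 111042767, plus strand) encodes the iron-binding lactoferrin. It stood at 0.546, 0.510 and 0.478 CPM in untreated liver and at 2.32, 3.55 and 2.15 CPM after LPS (log2 fold change 2.38, SE 0.37, edgeR adjusted p = 0.00112). Its untreated level was the steadiest of the 10 genes and it was counted in every untreated liver. Between Camp and Ltf lay 18 other tested genes, of which 4 were higher and 6 lower, with a median log2 fold change of -0.37. The highest log2 fold change among these neighbours was 2.93, and the share of them called higher was near the 23.3% of all tested genes.

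Mmp8 and Mmp9 encode the neutrophil collagenase and gelatinase B, proteases that cut collagens. Mmp8 (ENSMUSG00000005800, chromosome 9, 7558456 to 7568485, plus strand) stood at 0.0910, 0.0463 and 0.174 CPM before and at 3.39, 5.94 and 3.04 CPM after LPS. All 3 LPS livers were well above the untreated range (log2 fold change 5.22, SE 0.53, edgeR adjusted p = 0.000119). Mmp9 (ENSMUSG00000017737, chromosome 2, 164940780 to 164955850, plus strand) stood at 0.774, 0.788 and 0.608 CPM before and at 1.13, 2.66 and 1.20 CPM after LPS. The groups did not overlap, but LPS replicate 2 was 2.36-fold above replicate 1 and 2.22-fold above replicate 3, and the log2 fold change of 1.20 (SE 0.44) had an edgeR adjusted p of 0.0519. Without LPS replicate 1 it was 1.44 with an adjusted p of 0.0430, and in 1 fit over all 12 libraries it was 1.14 with an adjusted p of 0.0167. Without LPS replicate 2 it was 0.69 (adjusted p = 0.267), and with library totals 0.78 (adjusted p = 0.174).

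Stfa2l1 (ENSMUSG00000059657, chromosome 16, 36156811 to 36161953, plus strand) encodes a stefin A-like inhibitor of cysteine proteases. It had 0, 0 and 1 counts before and stood at 1.19, 1.66 and 1.14 CPM after LPS, a ratio of summed counts per effective library of 89.6 (95% interval 15.5 to 3592) that passed the test (edgeR adjusted p = 0.000364; 0.000759 without untreated replicate 3, which held the 1 untreated count). Of its 50-base windows, 24.6% also occurred in Stfa2 or Gm49652, so its counts are uncertain. Of 6 other stefin A genes found in the tables, only Gm5483 was tested in liver. It went from 0, 0 and 1 counts to 2.95, 4.33 and 3.10 CPM (edgeR adjusted p = 5.92e-05; 0.000127 without untreated replicate 3, which held its 1 untreated count).

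**Figure D3:**
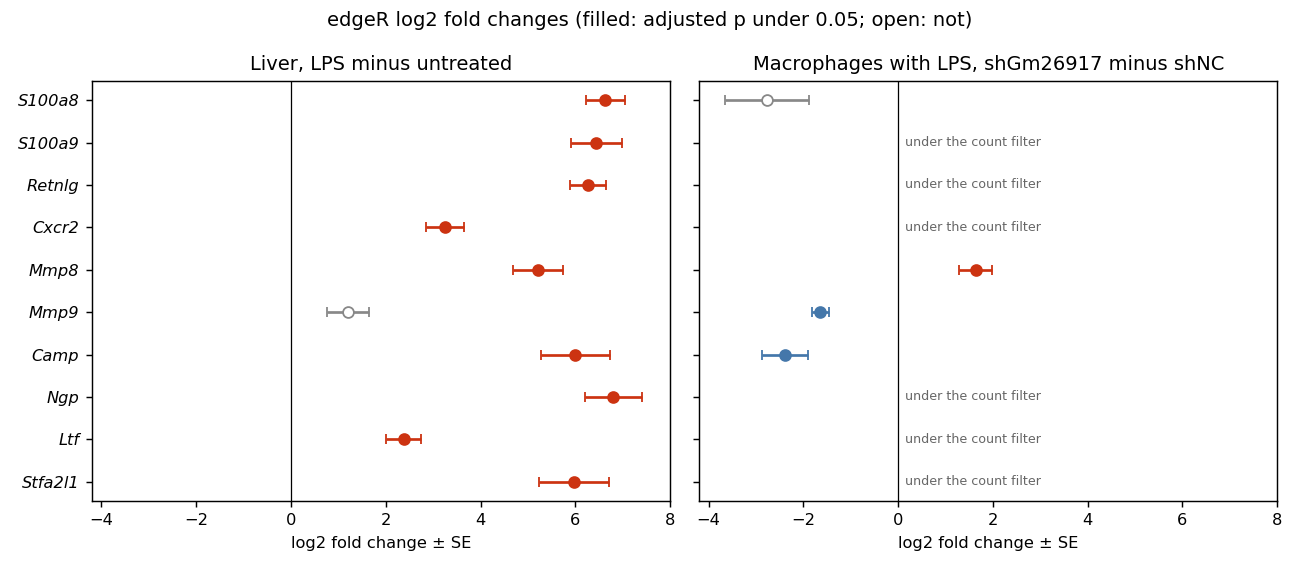
Log2 fold changes with their SE for LPS minus untreated liver (left) and shGm26917 minus shNC macrophages (right), from edgeR. Filled points passed an adjusted p under 0.05, open points did not, and genes under the count filter are marked. In liver all 10 points lie right of 0, with Mmp9 open at 1.20, and in macrophages Mmp8 lies right of 0 while Mmp9, Camp and S100a8 lie left of it.

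Levels of different genes were compared as CPM per kilobase of exon. In LPS liver the mean was 226 for S100a9, 117 for S100a8, 29.9 for Retnlg and 7.47 for Ngp, and the ranges of these 4 did not overlap with those of their neighbours in the order. Stfa2l1 (3.18), Camp (3.06) and Mmp8 (1.70) followed, with ranges that overlapped from one to the next. Cxcr2 (0.815), Ltf (0.775) and Mmp9 (0.470) were lowest and also overlapped one another in turn. In untreated liver S100a9 (2.58), S100a8 (1.16) and Retnlg (0.375) led as well, with overlapping ranges, and Mmp9 (0.204) came next.

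Within the LPS group, replicate 2 was the highest of the 3 livers for 9 of the 10 genes, Cxcr2 being the exception, whereas it was the highest for 29% of tested genes. It exceeded replicate 1 by 1.25-fold (Retnlg) to 2.36-fold (Mmp9). Among 15 other tested genes of mature neutrophils, 14 were likewise highest in replicate 2. The lists of recruiting signals had another order. Replicate 1 was the highest for 7 of 7 endothelial adhesion genes and 4 of 7 chemoattractant genes, against 40.4% of tested genes, and was the lowest for 8 of 8 Kupffer cell markers. Replicate 2 was the lowest for 6 of 7 chemoattractant genes. Kupffer cell markers were highest in replicate 2 for 7 of 8 and erythroid markers for 5 of 6, so the neutrophil genes were not alone in peaking there. Among the untreated livers, replicate 3 was the highest for 7 of the 10 genes and for 6 of 6 erythroid markers, against 34.8% of tested genes.

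**Figure D4:**
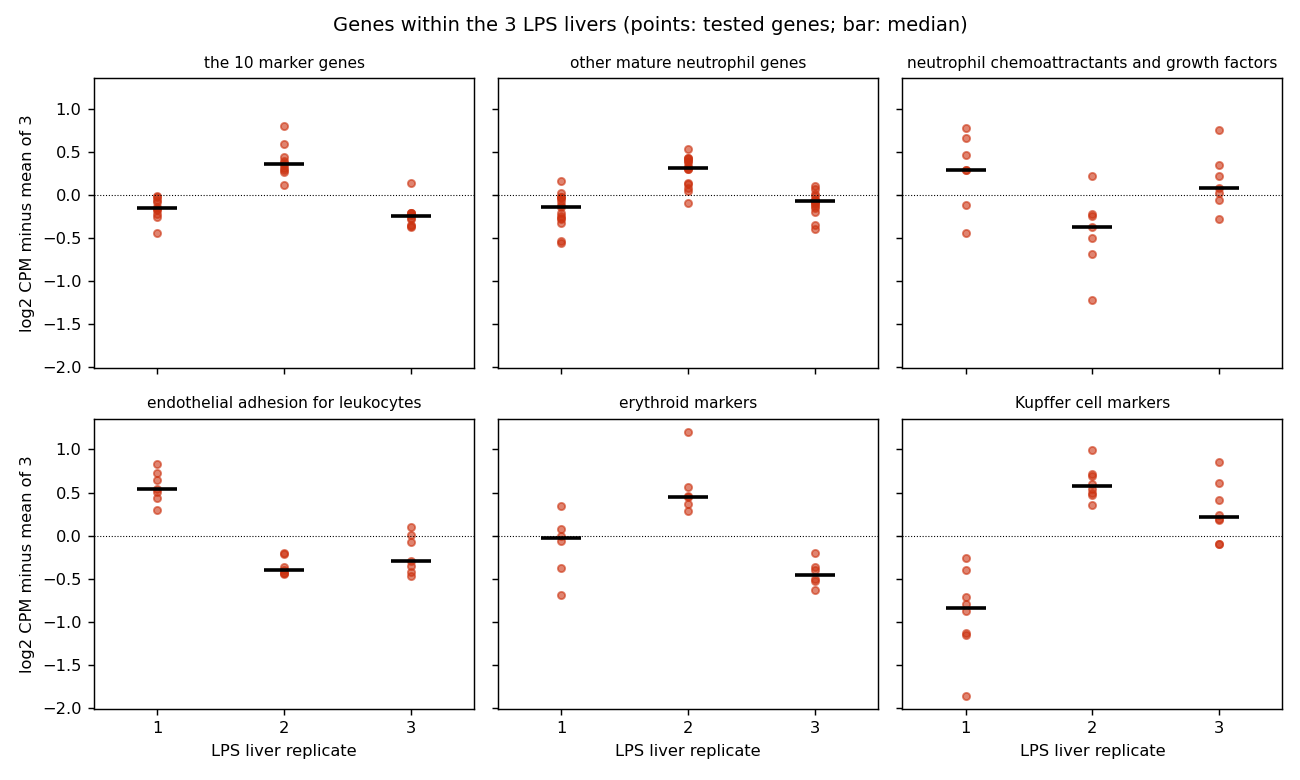
Log2 CPM minus the mean of the 3 LPS livers for each tested gene of 6 lists, by LPS replicate. Points are genes and bars are medians. The marker genes and other mature neutrophil genes sit highest in replicate 2, the endothelial adhesion genes in replicate 1, and the Kupffer cell markers lowest in replicate 1.

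Other genes of neutrophils moved the same way in liver, except those of azurophil granules and precursors. Of 11 further genes of specific and gelatinase granules, 9 were tested and 9 rose. Lcn2, the iron-scavenging lipocalin that hepatocytes also make, went from 11.5, 12.5 and 62.9 CPM to 2051, 2872 and 2536 CPM (log2 fold change 6.42, SE 0.76, edgeR adjusted p = 0.000293; 7.69 without untreated replicate 3). Slpi, a secreted protease inhibitor, rose from 1.23 ± 0.219 to 14.3 ± 3.08 CPM (mean ± SD of 3 libraries here and below), and Cybb, the oxidase subunit that neutrophils share with macrophages, from 13.1 ± 3.08 to 39.5 ± 11.5 CPM. Of 18 further genes of mature neutrophils, 15 were tested and 15 rose. This list summed to 233 to 466 CPM in untreated liver and 795 to 1406 CPM after LPS, so it was not silent before LPS. Csf3r, the receptor for G-CSF, rose from 2.02 ± 1.09 to 25.7 ± 1.16 CPM, and Fpr2, a formyl peptide receptor, from 1.08 ± 0.515 to 23.8 ± 5.38 CPM. Only 3 of those 9 and 7 of those 15 stood above the filter in all untreated livers. Both lists were also counted in the macrophage libraries. Their summed levels there were 8156 to 14331 CPM for the granule list and 5760 to 10575 CPM for the mature neutrophil list. Which cells of the liver gave these counts was not tested. Ly6g, the surface antigen used to sort mouse neutrophils, was under the filter, with 0 counts in the untreated livers and 11, 16 and 6 counts in the LPS livers (a gene singled out after its values were seen).

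Azurophil and precursor transcripts stayed near 0 in liver. Of 8 such genes only Cebpe, a transcription factor of granulocyte precursors, was tested, and it was not called (log2 fold change -1.05, SE 0.65, edgeR adjusted p = 0.216; called lower at -1.52 with an adjusted p of 0.0374 without untreated replicate 1). The summed level of the 8 was 0.592 to 4.91 CPM in untreated and 1.32 to 2.21 CPM in LPS liver. Mpo (myeloperoxidase) had 0, 3 and 0 counts before and 3, 1 and 3 counts after LPS, and Elane (neutrophil elastase) 0, 6 and 2 counts before and 0, 4 and 0 counts after. Ctsg and Ms4a3 had 1 count each in the LPS livers together, and Fcnb had 0 in all 6 livers. The rise of specific granule transcripts was therefore measured without a counted rise of azurophil ones. These genes were singled out after their values were seen.

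Relatives of the marker genes were less uniform. Of 11 other S100a genes 6 were tested and 5 rose, among them S100a10 (log2 fold change 1.65, SE 0.30) and S100a11 (2.57, SE 0.31), both broadly expressed calcium-binding family members. Of 11 other matrix metalloproteinase and inhibitor genes 9 were tested, 4 rose and 4 fell. Mmp13, a collagenase, went from 0.228, 0.0927 and 0.130 CPM to 51.2, 87.0 and 72.5 CPM (log2 fold change 8.81, SE 0.37, edgeR adjusted p = 2.19e-06). Mmp19 fell from 30.6 ± 9.34 to 10.1 ± 4.36 CPM and Mmp15 from 23.3 ± 13.6 to 7.22 ± 1.52 CPM.

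Genes for signals that recruit neutrophils were measured in the same livers. Of 7 tested chemoattractant and growth factor genes 6 rose and 1 fell, where 23.3% of all tested liver genes were called higher. Only 1 of the 7 stood above the filter in all untreated livers, so these counts are no test of the list. Cxcl1, a ligand of Cxcr2, stood at 0.319, 1.21 and 13.1 CPM before and at 241, 153 and 209 CPM after LPS (log2 fold change 5.36, SE 1.09, edgeR adjusted p = 0.00463; 8.03 without untreated replicate 3). Cxcl2, another ligand, rose from 0.243 ± 0.101 to 50.7 ± 9.76 CPM and Csf3, which encodes G-CSF, from 0.168 ± 0.177 to 21.3 ± 10.9 CPM. Cxcl12, which retains neutrophils in marrow through Cxcr4, fell from 369 ± 82.7 to 119 ± 28.7 CPM. Of 7 endothelial adhesion genes 5 rose. Sele (E-selectin) had 0 counts in 3 untreated livers and stood at 34.9, 15.6 and 17.2 CPM after LPS, and Selp (P-selectin) rose from 1.38 ± 0.533 to 56.1 ± 18.9 CPM. Icam1, the ligand of leukocyte beta-2 integrins, rose from 9.92 ± 2.66 to 281 ± 85.1 CPM. Of 8 leukocyte adhesion and attractant receptor genes 4 rose and 1 fell (2 rose without untreated replicate 2 or LPS replicate 2, and 0 fell without untreated replicate 1 or 2 or LPS replicate 3). C5ar1, the receptor for complement C5a, rose from 1.08 ± 0.108 to 13.6 ± 4.77 CPM.

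Markers of other cells were measured beside these, and their part in the result was not tested. Erythroid markers, which stand for blood held in the tissue, rose in 5 of 6, their summed level going from 157 to 274 CPM in untreated liver to 565 to 1039 CPM after LPS, and Hba-a1 rose from 70.3 ± 20.0 to 254 ± 63.5 CPM (3 of 6 were called in 1 fit over all 12 libraries). Platelet markers rose in 2 of 3 tested, with a summed level of 4.31 to 5.38 CPM before and 9.62 to 14.9 CPM after. Of 7 tested monocyte markers 2 rose and 2 fell (1 without LPS replicate 2 or 3), with a summed level of 1173 to 1453 CPM before and 850 to 1386 CPM after. This sum is of the whole list, which includes Fn1. Which liver cells gave it was not tested, so it is no measure of monocytes. Of 8 Kupffer cell markers 1 rose and 1 fell (2 fell without LPS replicate 2), with 239 to 291 CPM before and 117 to 318 CPM after. Marco, a scavenger receptor, was the one that rose, from 8.31 ± 3.22 to 48.3 ± 15.6 CPM. Of 10 markers of T and NK cells 3 rose (1 without untreated replicate 1 or 3 or LPS replicate 1), at a summed level of at most 14.7 CPM, and B cell markers fell in 1 of 5. Eosinophil and mast cell markers were all under the filter, with a summed level of at most 0.439 CPM and Epx at 0 counts in all 6 livers. Hepatocyte markers summed to 79770 to 122106 CPM before and 58946 to 93540 CPM after.

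**Figure D5:**
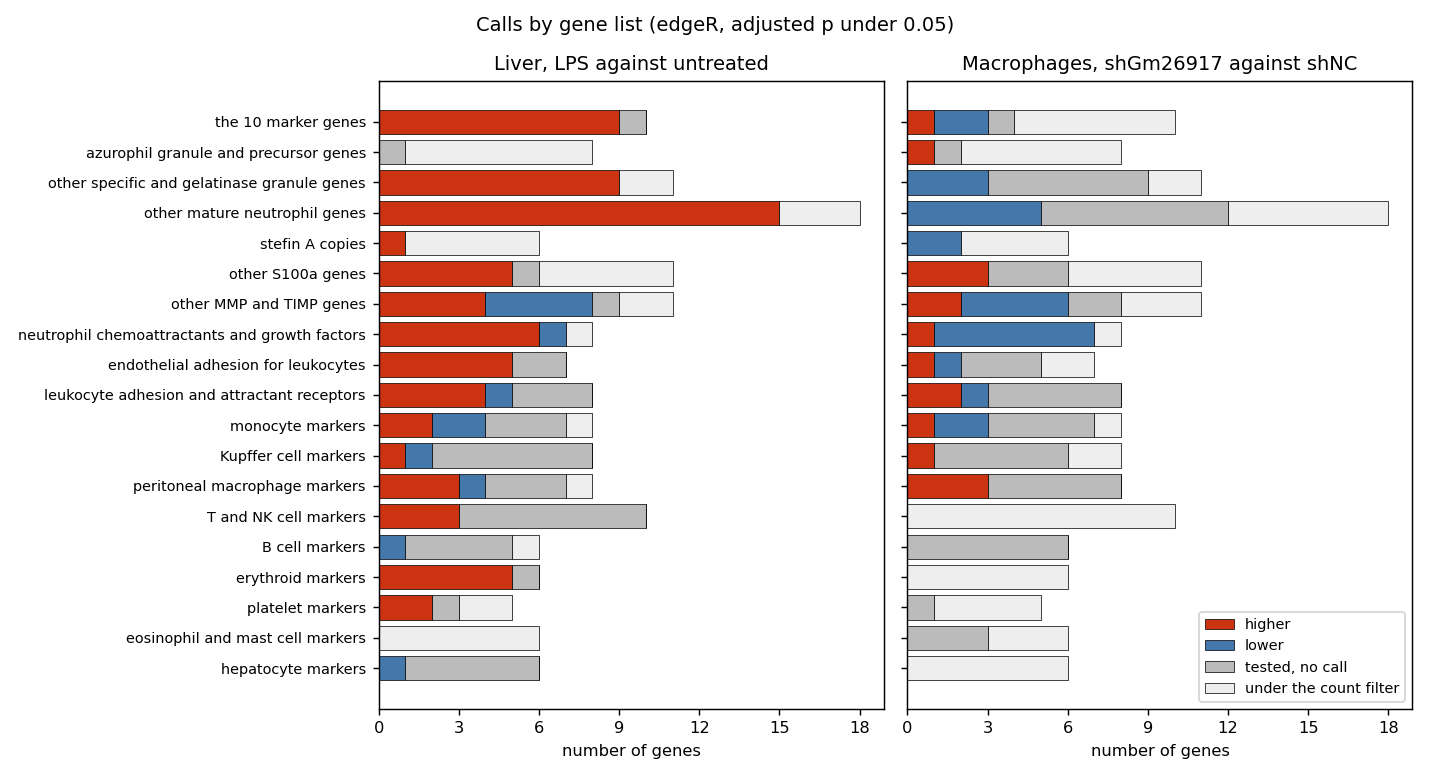
Number of genes called higher, called lower, tested without a call, or under the count filter in each list, for liver (left) and macrophages (right), by edgeR at an adjusted p under 0.05. In liver the specific and gelatinase granule list and the mature neutrophil list hold 9 and 15 higher genes and none lower, while the azurophil list has 1 tested gene and no call.

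In the macrophage libraries the 10 genes divided sharply by level. S100a8, Mmp8, Mmp9 and Camp were counted in all 6 libraries, and the other 6 were at or near 0. Retnlg, Ngp and Stfa2l1 had 0 counts in all 6 libraries, where a count of 0 allows up to 3 counts, or 0.153 to 0.203 CPM. Cxcr2 had 5 counts in shNC replicate 1 and 0 elsewhere, Ltf 0 to 5 counts per library, and S100a9 1 count in shNC replicate 2. These 6 genes, grouped by their low macrophage counts, together gave 0 to 6 counts per macrophage library. The same 6 were counted in every LPS liver, with S100a9 giving most of their counts there.

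S100a8 was counted almost without S100a9 in the macrophages. S100a9 had 0 counts beside 346 and 321 of S100a8 in shNC replicates 1 and 3 and beside 225, 187 and 232 in the shGm26917 libraries, and the exact 95% interval of its share in the sum reached from 0 up to 1.06% and 1.14% in those shNC libraries and up to 1.63%, 1.95% and 1.58% in the shGm26917 libraries. In shNC replicate 2 it was 0.0350% (exact interval 0.000886% to 0.195%). The same share was 58.7% to 59.8% in the LPS livers. The tables of both tissues hold both IDs, and no 50-base window of either gene is shared with another gene. The annotation and counting settings behind the macrophage tables are unknown, and whether they lowered the S100a9 counts was not tested, so these values describe the tables and may not give the level of the transcript.

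Cell identity was checked with the same lists. Peritoneal macrophage markers summed to 5087 to 22924 CPM per macrophage library, whereas hepatocyte markers summed to at most 0.469 CPM. Other lists were also high there: monocyte markers at 1711 to 8722 CPM, Kupffer cell markers at 2324 to 3894 CPM and platelet markers at 2127 to 3759 CPM. The sums therefore set these cells apart from hepatocytes but not from other myeloid cells. Of the 18 further genes of mature neutrophils, 12 were tested in macrophages. The list summed to 6586 to 10575 CPM with shNC and 5760 to 6869 CPM with shGm26917. Its 4 genes with 0 counts in all 6 libraries were Ly6g, Mrgpra2a, Mrgpra2b and Cxcr1 (named after their values were seen). B cell markers were present, at 45.8 to 182 CPM in sum. In shNC replicate 2 B cell markers were the highest of the shNC group in 6 of 6 (42.9% of tested genes were highest there). They were likewise highest in shGm26917 replicate 2 of its group in 6 of 6. Eosinophil and mast cell markers summed to 15.4 CPM in shNC replicate 2 against at most 4.33 CPM in the other macrophage libraries.

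Between the hairpins, 4 of the 10 genes were tested and 3 were called, 1 higher and 2 lower with shGm26917, where 23.7% of 12876 tested genes were called, 12.6% higher and 11.1% lower. Mmp9 stood at 654, 593 and 508 CPM with shNC and at 221, 160 and 182 CPM with shGm26917. The groups were well apart, with a log2 fold change of -1.64 (SE 0.18, edgeR adjusted p = 0.00360), and the call held in every alternative run. Mmp8 went the other way, from 72.6, 43.1 and 53.5 CPM to 256, 107 and 162 CPM (log2 fold change 1.63, SE 0.35, edgeR adjusted p = 0.0198). Its call was lost without shNC replicate 3 (adjusted p = 0.0685), shGm26917 replicate 1 (0.0501) or shGm26917 replicate 3 (0.0668). The collagenase and the gelatinase thus moved in opposite directions in the same libraries.

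Camp stood at 6.23, 2.30 and 2.30 CPM with shNC and at 0.713, 0.602 and 0.737 CPM with shGm26917 (log2 fold change -2.39, SE 0.49, edgeR adjusted p = 0.0180). The call was lost without shGm26917 replicate 1, 2 or 3 (adjusted p of 0.0679, 0.0804 and 0.0732), and the log2 fold change was -1.75 without shNC replicate 1. S100a8 stood at 23.2, 193 and 21.7 CPM with shNC and at 11.5, 10.2 and 13.2 CPM with shGm26917. One library, shNC replicate 2, was far above the rest, and the log2 fold change of -2.77 (SE 0.89) did not pass (edgeR adjusted p = 0.0646). Without that library it was -0.96 and passed (adjusted p = 0.00213), and it also passed at -3.22 without shNC replicate 1 (adjusted p = 0.0485). With 1 library left out at a time, 1 to 4 of the 4 tested genes were called, 4 without shNC replicate 1 or 2 and 1 without shGm26917 replicate 1 or 3.

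Per kilobase, Mmp9 (165) and S100a8 (114) led in shNC macrophages with overlapping ranges, followed by Mmp8 (23.3) and Camp (4.76). In shGm26917 macrophages Mmp8 (72.2) and Mmp9 (53.0) led with overlapping ranges, followed by S100a8 (16.7) and Camp (0.902). The tissues were counted with different annotations, so a level in macrophages stands beside one in liver with no test. Mmp9 had the lowest mean of the 10 in LPS liver and the highest in shNC macrophages.

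Related lists were compared between the hairpins too, with LPS in both groups, so this contrast is not the one made in liver. Of all tested macrophage genes 11.1% were called lower and 12.6% higher. Of 12 tested genes of mature neutrophils 5 were lower and none was higher with shGm26917 (3 lower without shNC replicate 1 or shGm26917 replicate 1, 1 lower without shGm26917 replicate 2 or 3, and 1 higher without shNC replicate 2). Fpr1, a formyl peptide receptor of neutrophils and macrophages, fell from 903, 1212 and 957 CPM to 264, 219 and 319 CPM (log2 fold change -1.94, SE 0.21, edgeR adjusted p = 0.00351). Of 9 tested genes of specific and gelatinase granules 3 were lower (1 without shGm26917 replicate 1, 0 without replicate 2 or 3) and 6 were not called. Lcn2, named after its values were seen, stood at 117, 1119 and 111 CPM with shNC and 22.7, 13.9 and 12.9 CPM with shGm26917, and shared with S100a8 the high value of shNC replicate 2. Its log2 fold change of -4.77 (edgeR adjusted p = 0.0217) was -2.81 without that library (adjusted p = 0.000159), and the call was lost without any 1 of the shGm26917 libraries (adjusted p of 0.0711 to 0.0955). Of 7 tested chemoattractant genes 6 were lower and 1 higher (3 and 0 without shGm26917 replicate 3). Cxcl1 stood at 2717, 835 and 4395 CPM with shNC and at 96.3, 57.9 and 82.9 CPM with shGm26917 (log2 fold change -5.07, SE 0.65, edgeR adjusted p = 0.00508).

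The stefin A genes and the azurophil gene Prtn3 differed in macrophages as well. Stfa3 stood at 91.3, 245 and 86.1 CPM with shNC and at 37.6, 10.1 and 13 CPM with shGm26917, and Gm5483 at 69.0, 176 and 50.8 CPM and at 16.2, 1.75 and 3.23 CPM. Both calls (edgeR adjusted p = 0.0254 and 0.0284) were lost without shGm26917 replicate 2 or 3. The log2 fold changes of -2.80 (Stfa3) and -3.80 (Gm5483) were -2.14 and -3.08 without shNC replicate 2, and -3.60 and -5.30 without shGm26917 replicate 1. In LPS liver Stfa3 had 1 count in all, so the stefin A gene that led in macrophages was not the one that led in liver. Prtn3, which encodes proteinase 3, stood at 0.0670, 0.811 and 0.135 CPM with shNC and at 6.06, 12.9 and 3.63 CPM with shGm26917 (log2 fold change 4.45, SE 0.85, edgeR adjusted p = 0.0142; 6.10 without shNC replicate 2 and not called without shGm26917 replicate 2, adjusted p = 0.0569). Mpo and Elane had at most 1 and 4 counts in any macrophage library (named after their values were seen).

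The remaining lists differed less uniformly between the hairpins. Of 6 tested S100a genes 3 were higher with shGm26917 (5 without shNC replicate 2, and 2 without shNC replicate 3 or any 1 shGm26917 library). Among the 3 was S100a6, a calcium-binding relative of S100a8, at 35.5, 32.3 and 26.0 CPM with shNC and 73.7, 71.1 and 90.1 CPM with shGm26917. Of 8 tested matrix metalloproteinase and inhibitor genes 2 were higher and 4 lower (1 lower without shGm26917 replicate 2 or 3, and 1 higher without shNC replicate 1 or any 1 shGm26917 library). Mmp13 fell beside Mmp9, from 1098, 1250 and 2331 CPM to 178, 47.1 and 108 CPM, and Timp2, an inhibitor, rose from 82.5 ± 6.59 to 387 ± 97.8 CPM. Peritoneal macrophage markers were higher in 3 of 8 and lower in none (0 to 1 higher without shNC replicate 1 or 3 or any 1 shGm26917 library), and monocyte markers were higher in 1 and lower in 2 of 7 (2 higher without shNC replicate 2). Csf1r, the receptor that macrophages depend on, was at 1150, 1063 and 803 CPM with shNC and 2462, 2751 and 2292 CPM with shGm26917. No B cell marker was called among 6 tested.

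Genes outside the list whose liver pattern was most like the mean log2 CPM of the 10 were sought over the 6 liver libraries, which fall into an untreated and an LPS cluster. The closest were Ifi205, Gm5483, Pelo, Aida and Clec4e, and 222 genes had a Pearson correlation above 0.99. After the group means were taken out, the closest were Phtf1, Klhl22, Dym, Gm22392 and Psmb9, with 6 genes above 0.99, over the same 6 libraries. No gene of a neutrophil list stood among these 5. After the same step the 10 genes themselves correlated with their mean at -0.05 (Ngp) and 0.53 (Mmp9) up to 0.98 (Stfa2l1). The mean includes each of the 10 genes. Ngp had 1, 4 and 0 counts in the untreated livers, so its value rests partly on very few counts. Within the LPS livers Ngp was 1.49 and 1.52 times as high in replicate 2 as in replicates 1 and 3. These correlations therefore cannot tell whether all 10 followed the mean.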

How the data were processed

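Poly(A) RNA libraries were grouped by their titles and treatment labels. The authors deposited counts, that is unnormalized whole-number reads for each Ensembl ID, 1 table a library. Per the submitters' processing notes, the tools were STAR and featureCounts 1.6.3 and the build mm10, while parameters, annotation release and strand use are unstated in the sources used here, as is the meaning of "combined" in the macrophage headers. Symbols were assigned to 49326 liver and 55141 macrophage IDs. Exon lengths and coordinates are those of GENCODE M21.

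Each tissue was fitted alone because its tables hold different IDs (49022 shared), in edgeR 4.0.16 under R 4.3.3 with limma 3.58.1, using TMM scaling, filterByExpr with a minimum count of 10, the quasi-likelihood F test (2-sided) and Benjamini-Hochberg adjustment over all genes tested. The SE equals the size of the log2 fold change over the square root of F. CPM use TMM-scaled library sizes. Likeness used log2 of CPM plus 0.1. The scripts were tested on simulated data. Alternatives were size factors of DESeq2, library totals, no filter, a filter of 1 CPM in 3 libraries, the DESeq2 1.42.0 Wald test, the replicate number as a block, 1 fit over 12 libraries, and each library left out. Intervals are 95% and cover counting error only, and a count of 0 was taken to allow 3 counts.

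The 10 genes, the 18 other lists and the 7 motifs were chosen with earlier results of these data known. Of each list, the 4 tested genes with the highest mean CPM could be named with values, and any other is said to be chosen after its values were seen.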

Additional observations from a re-analysis of the deposited data

How the results depend on the processing

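In liver, 8 to 10 of the 10 genes were called under every alternative (8 of 8 tested with a filter of 1 CPM in 3 libraries, 10 in 1 fit over 12 libraries or without LPS replicate 1). Of 128 single-gene alternatives there, 126 kept direction and call, and 2, both for Mmp9, passed the threshold. In macrophages, 3 or 4 were called under the other settings and 1 to 4 with 1 library left out. Of 51 single-gene alternatives, 41 kept direction and call, 4 passed the threshold (S100a8) and 6 lost it (Mmp8 and Camp). S100a8 also passed with no count filter (adjusted p = 0.0355) and in 1 fit over 12 libraries (0.0191), and DESeq2 gave it no p-value. No direction reversed for a member under the alternatives run.

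Over all genes, 4865 to 6227 were called in liver with 1 library left out (6287 with all 6) and 839 to 5236 in macrophages (3049 with all 6). Library totals moved the macrophage median log2 fold change to 0.29 and the calls from 1618 higher and 1431 lower to 3135 higher and 794 lower, and 3 members were again called. With the replicate number as a block, 9 members were called in liver and 3 in macrophages, and 5754 and 2594 genes over all. Same-numbered libraries correlated at 0.12, 0.05 and -0.08 in liver, and other pairs at -0.19 to 0.12. In macrophages the same-numbered values were -0.04, 0.24 and 0.18, and the others -0.24 to 0.16. Whether the numbers pair the libraries cannot be told from these values. The block moved S100a8 in macrophages to -1.92 (adjusted p = 0.134). For counts under about 10 per library, as for Camp, Ngp and Stfa2l1 before LPS, depth limits the fold change: without 1 untreated library it was 8.45 for Camp, 8.29 for Ngp and 7.65 for Stfa2l1 on the log2 scale, fitted values that rest on 0 or 1 untreated counts and are no bounds. The causes of these moves were not tested.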
